A study of Homo sapiens with 24 samples.

Results

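The response to isoginkgetin was followed in the arrays labelled HCT116, a human colorectal carcinoma cell line. The arrays were chosen by their titles, which name HCT116 without the p53 deletion, 8 h of exposure and replicate 1 or 2. This gave 6 of the 12 arrays of the series, which are 12 of its 24 deposited samples, since each array appears once in a gene-level table and once in a probe-set table. Cells were exposed for 8 h to 30 µM isoginkgetin, to an equal volume of the solvent DMSO, or left untreated, with 2 arrays per group from independent experiments, and all were labelled with the parental genotype. The untreated, DMSO and isoginkgetin arrays that share a replicate number form a set, and the line had 2 sets of 3 arrays. Total RNA was hybridised to the Affymetrix Human Transcriptome Array 2.0, and the level of a gene is the mean log2 value of its exon probe sets. A gene needed exactly 1 gene symbol and at least 3 exon probe sets, which 18613 genes had. The 6 arrays of the p53-null subline, which had the same treatments, enter below as the source of the residual spread and for comparison. Precision is limited by how few arrays there are, since arrays carry no depth.

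Isoginkgetin is a biflavonoid of ginkgo leaves known as a splicing inhibitor. Several of the genes followed here belong to well known stress programmes. Metallothioneins are small cysteine-rich proteins that bind zinc and copper, and the zinc sensor MTF1 drives their transcription through metal response elements. In the integrated stress response, phosphorylation of the initiation factor eIF2 favours translation of ATF4, which then drives genes of amino acid transport and synthesis, CHAC1 and DDIT3 among them. EGR1 and other immediate early genes follow growth factor signals through serum response factor, which binds CArG boxes.

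The promoters of 5 genes that recur below are shown because MT2A and MT1X rose in both sets, CHAC1 and ASNS within replicate 2, and EGR1 changed in opposite directions. The sequences are the 250 bases before the annotated start, from RefSeq (GRCh38.p14), in lower case. Capitals mark, on either strand, the metal response element TGCACNC or TGCGCNC in MT2A (chr16:56608334-56608583, plus strand) and MT1X (chr16:56682220-56682469, plus strand), the C/EBP-ATF response element TGATGNAAN in CHAC1 (chr15:40953221-40953470, plus strand) and ASNS (chr7:97872409-97872658, minus strand), and the CArG box in EGR1 (chr5:138465229-138465478, plus strand).
MT2A: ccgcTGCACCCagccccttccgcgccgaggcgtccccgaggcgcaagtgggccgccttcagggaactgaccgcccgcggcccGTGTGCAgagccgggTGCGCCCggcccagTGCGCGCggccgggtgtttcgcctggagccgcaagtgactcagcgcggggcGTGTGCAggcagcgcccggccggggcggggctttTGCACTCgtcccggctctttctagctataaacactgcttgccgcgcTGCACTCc
MT1X: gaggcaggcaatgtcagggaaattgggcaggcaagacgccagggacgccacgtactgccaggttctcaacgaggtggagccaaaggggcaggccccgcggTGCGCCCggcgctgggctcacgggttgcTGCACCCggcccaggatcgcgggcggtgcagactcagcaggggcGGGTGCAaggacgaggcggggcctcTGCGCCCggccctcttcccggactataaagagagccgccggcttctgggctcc
CHAC1: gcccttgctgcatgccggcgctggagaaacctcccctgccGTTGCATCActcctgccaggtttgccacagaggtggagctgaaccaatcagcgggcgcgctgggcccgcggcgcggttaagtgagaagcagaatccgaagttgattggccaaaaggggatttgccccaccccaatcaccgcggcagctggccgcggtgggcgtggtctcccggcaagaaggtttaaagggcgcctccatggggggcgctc
ASNS: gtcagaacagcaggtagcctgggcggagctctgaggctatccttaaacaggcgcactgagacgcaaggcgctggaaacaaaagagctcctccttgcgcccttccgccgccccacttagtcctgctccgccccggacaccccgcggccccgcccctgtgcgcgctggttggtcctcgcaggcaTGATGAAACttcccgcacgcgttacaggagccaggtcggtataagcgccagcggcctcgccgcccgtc
EGR1: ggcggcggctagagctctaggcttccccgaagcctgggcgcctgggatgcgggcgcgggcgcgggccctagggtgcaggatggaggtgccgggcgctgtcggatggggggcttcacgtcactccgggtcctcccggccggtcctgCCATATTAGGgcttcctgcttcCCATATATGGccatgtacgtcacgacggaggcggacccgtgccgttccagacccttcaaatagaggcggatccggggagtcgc
The metal response element matched 7 times before MT2A and 4 times before MT1X, and it matched at least 3 times in 1.58% of 35116 promoters of this length, where 24.8% held it at least once. Promoters of 5 of the 11 metallothionein genes measured were matched by symbol, and those of MT1H, MT1B and MT4 held 8, 3 and 3 matches. That of SLC30A1, a zinc exporter, held 1, and the first promoter entry of SLC39A10, a zinc importer, held 0. The C/EBP-ATF element matched once each before CHAC1 and ASNS and was found in 3.13% of all promoters. In the first promoter entry of each gene, it matched once before ATF3 and 0 times before DDIT3, DDIT4, SESN2, TRIB3 and ATF4. The CArG box matched 2 times before EGR1 and 0 times before FOS, another immediate early gene, and was found in 1.16% of all promoters. A match describes the letters in this window and does not show a bound site.

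The labelled cell type was set against marker genes. Of 10 epithelial markers, 8 lay at 8 log2 or more on every array of replicate 2, and 0 did so on any array of replicate 1. Over all 18613 genes, 5853 lay at that level on the DMSO array of replicate 1 and 4880 on that of replicate 2. EPCAM, an adhesion molecule of epithelia, lay between 11.93 and 12.07 log2 in replicate 2 and between 4.61 and 4.63 in replicate 1, and the keratin KRT8 between 13.85 and 14.15 and between 5.72 and 5.89. Overlap of arrays between the sets was not counted over all genes, so only the levels are given for these genes. Of 14 fibroblast and mesenchymal markers, 6 lay at 8 log2 or more in replicate 1 and 0 in replicate 2, among them the intermediate filament gene VIM (12.52 to 12.62 against 3.07 to 3.13) and the transcription factor gene TWIST1 (9.83 to 10.01 against 3.73 to 3.93). COL1A1 and COL1A2, which encode type I collagen, were low in both (at most 4.84 and 4.70). LUM, DCN, PDGFRB and FN1 lay at most at 4.84 in either set too, so that part of the mesenchymal list was low. Of 3 smooth muscle markers, ACTA2 and CNN1 passed 8 log2 in replicate 1, as did NES among 4 neural markers, and no endothelial, leukocyte, melanocyte, hepatocyte or colon marker did in either set. CDX2 and VIL1, which mark intestinal epithelium, were thus low in replicate 2 as well. The summed picture of the mesenchymal list was a mean level of 7.33 to 7.38 log2 in replicate 1 and 3.63 to 3.67 in replicate 2. The arrays labelled HCT116 replicate 1 therefore go against their label, and every result is given for each set. The array medians were 5.94 to 5.96 log2 in replicate 1 and 5.31 to 5.32 in replicate 2, so that levels are compared across sets only with that offset in view. In such bulk samples, fewer cells of a type and less RNA per cell cannot be told apart.

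**Figure D1:**
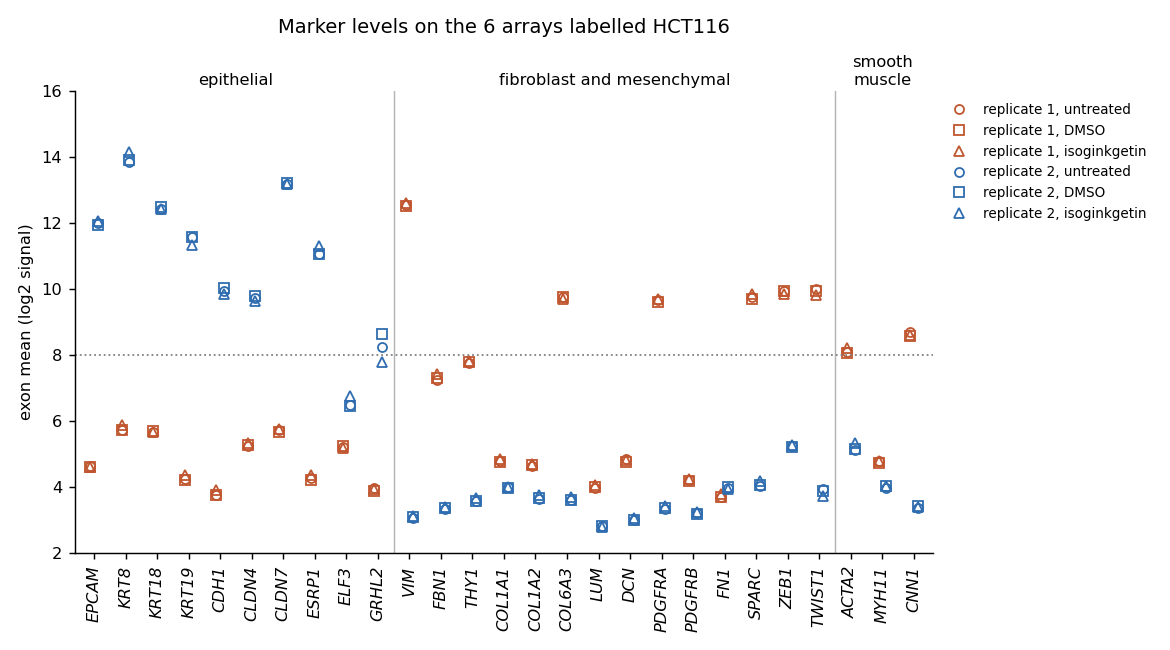
Levels of epithelial, mesenchymal and smooth muscle markers (exon mean, log2 signal, vertical axis) on the 6 arrays labelled HCT116, with colour for the set and symbol for the treatment; the dotted line is at 8 log2. Replicate 2 sits high in 8 of 10 epithelial markers, and replicate 1 sits high in 6 of 14 mesenchymal and 2 of 3 smooth muscle markers.

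The first question was which genes moved with isoginkgetin in both sets. Metallothionein genes and the stress transcription factor gene DDIT3 were higher than in DMSO, and TEAD4, PMM2 and a larger number of moderately changed genes were lower. limma with the set as a block called 693 of 18613 genes at an adjusted p under 0.05 (3.72%), of which 126 were higher (0.677%) and 567 lower (3.05%), and 4746 genes had an unadjusted p under 0.05. All 693 had the same sign in both sets. For 692 of them the isoginkgetin array lay beyond both the DMSO and the untreated array of its set in both sets. A shared sign was built into the test, since disagreement between the sets enters its residual spread, and it is not separate support. The changes in exon means were small, with a median of 0.30 log2 among the genes called higher and −0.32 among those called lower. On average 5 genes passed 2-fold (MT1F, MT1X, MT1M, DDIT3 and TEAD4). In each set, 26.4% of the averaged exon probe sets had equal values on the isoginkgetin and DMSO arrays. These enter the mean as a change of 0, so the sizes depend on this summary. The genes called lower had a median level of 8.59 log2 in DMSO and those called higher 6.55, against 5.68 over all genes. The calls rest on the block, on the spread shared with the p53-null arrays and on both DMSO arrays: 0 genes were called without the block, on the HCT116 arrays alone, without DMSO 1 or without DMSO 2. With the median of a gene's probe sets in place of their mean, 161 genes were called, and of 38 genes recomputed 18 lost the call and 1, MT1IP, turned sign. Those 18 were MT1F (adjusted p = 0.053), MT1X (0.067), MT1M, MT1H, MT1E, MT1L, MT1DP, HSPA5 (0.15), IQCN, TMEM116, TCEAL9, CPNE1, PMM2 (0.059), SLC25A32, CRLF3, CCDC137, POP1 and TNFRSF12A. With quantile scaling MT1M, ELK3, CRLF3 and RIGI no longer passed.

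Metallothionein genes led the shared rises. Of 12 genes in the metallothionein list, which also holds MTF1, 8 rose over both sets and 0 fell (MT1B, MT1E, MT1F, MT1H, MT1M, MT1X, MT2A and MT4), where 0.677% of all genes rose. The median of the list was 0.56 log2 in replicate 1 and 0.52 in replicate 2, against 0.0075 and 0.013 over all genes, and 11 of 12 members lay above 0 in each set. MT1F lay at 10.49 untreated, 10.66 in DMSO and 12.15 with isoginkgetin in replicate 1 and at 10.70, 10.43 and 13.52 in replicate 2. The isoginkgetin array was the highest of its set in both. MT1F rose by 2.29 log2 (4.89-fold; limma adjusted p = 0.022; SD 1.13 over n = 2 sets), and the rise was larger in replicate 2 (3.09 against 1.49, limma adjusted p = 0.011 for the difference). MT1X lay at 10.25, 10.38 and 11.14 log2 in replicate 1 and at 10.56, 10.55 and 12.33 in replicate 2, in the order untreated, DMSO and isoginkgetin that is kept below. Its rise of 1.27 log2, or 2.04 with the median of its probe sets, (SD 0.72, n = 2 sets, limma adjusted p = 0.03) was again larger in replicate 2 (difference 1.01, SE 0.07, adjusted p = 0.0075).

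MT2A rose over both sets as well. It lay at 12.82, 12.84 and 13.57 log2 in replicate 1 and at 14.67, 14.68 and 15.35 in replicate 2, a rise of 0.70 log2 (SD 0.05, n = 2 sets, limma adjusted p = 0.012). The difference between its rises was −0.06 log2 (SE 0.13, adjusted p = 0.85). MT1M and MT1A had the larger value in replicate 1, with 1.49 and 1.14 log2 in replicate 1 against 0.62 and 0.39 in replicate 2 (adjusted p = 0.011 and 0.01 for the differences). MT1H, MT1E and MT1B rose by 0.77, 0.61 and 0.47 log2, and the pseudogenes MT1L, MT1IP and MT1DP by 0.65, 0.52 and 0.51. MT1JP, another pseudogene, had 0.94 log2 (adjusted p = 0.055). These genes lie in 1 cluster on chromosome 16 and share much of their sequence, which makes the value of any one of them uncertain, and MT1IP had −0.07 log2 when the median of its probe sets was used.

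Zinc transporters changed as single genes. Of 24 in the list, 2 fell over both sets and 0 rose, where 3.05% of all genes fell and 0.677% rose, with a median of −0.0018 log2 in replicate 1 and 0.02 in replicate 2. SLC39A10, which brings zinc into the cell, lay at 8.60, 8.54 and 7.79 log2 in replicate 1 and at 8.11, 8.13 and 7.44 in replicate 2. The isoginkgetin array was the lowest of each set, and the mean change was −0.72 log2 (SD 0.04, n = 2 sets, limma adjusted p = 0.011). SLC39A9, a zinc transporter of the Golgi, fell by less, with −0.29 and −0.24 log2 in the sets (adjusted p = 0.018). SLC30A1, which exports zinc from the cytosol, lay at 11.78, 11.79 and 12.16 log2 in replicate 1 and at 9.26, 9.32 and 10.57 in replicate 2. It was above both controls in each set, and its mean of 0.81 log2 did not pass over both sets (adjusted p = 0.075), while it rose within replicate 1 (0.37, adjusted p = 0.041) and more within replicate 2 (1.25, adjusted p = 0.0013; adjusted p = 0.015 for the difference).

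**Figure D2:**
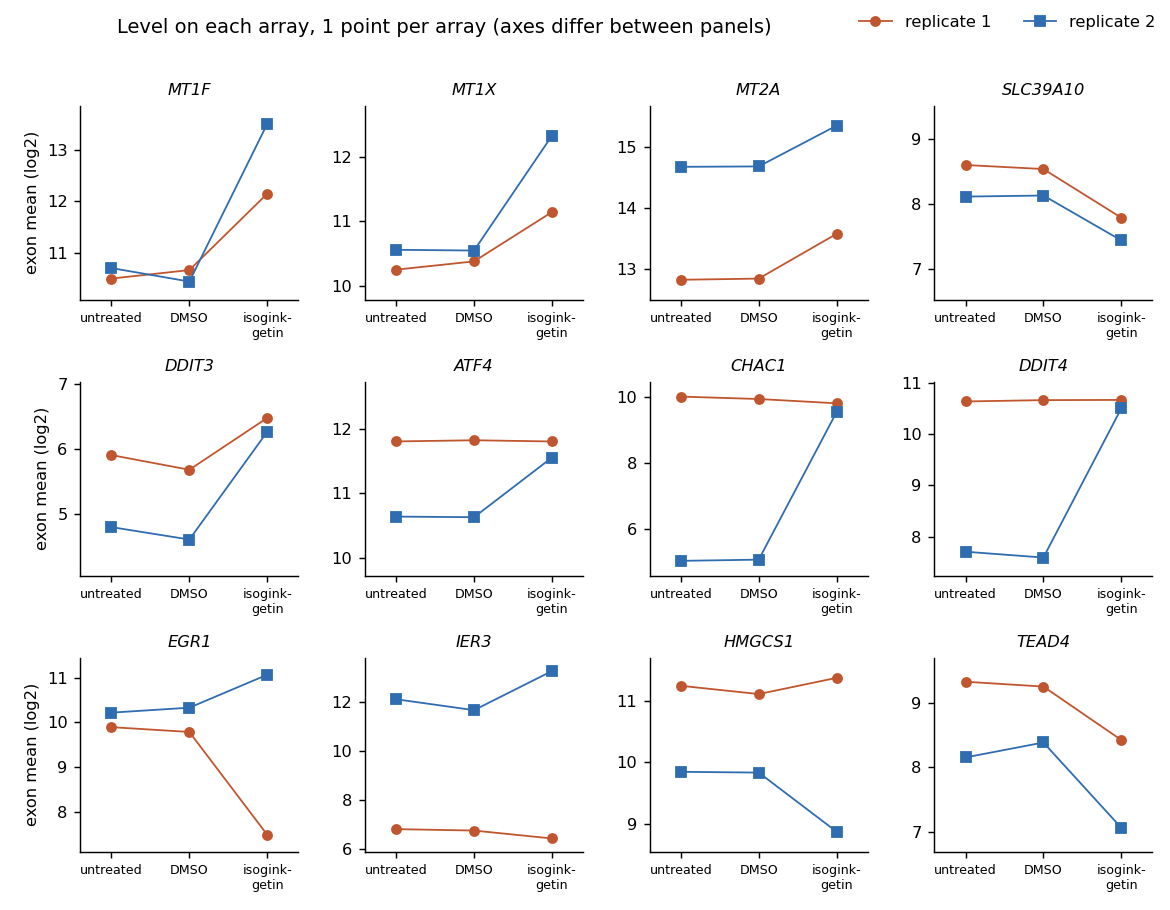
Exon mean (log2, vertical axis, with its own range in each panel) of 12 named genes on each array, 1 point per array, joined within a set for reading only. MT1F, MT1X, MT2A and DDIT3 were highest with isoginkgetin in both sets, SLC39A10 and TEAD4 lowest in both, and ATF4, CHAC1 and DDIT4 were higher in the controls of replicate 1 than on the treated array of replicate 2.

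A stress transcription factor, an eIF2 kinase and a chaperone of the endoplasmic reticulum (ER) rose over both sets. DDIT3, a transcription factor of prolonged stress, lay at 5.91, 5.68 and 6.48 log2 in replicate 1 and at 4.79, 4.60 and 6.27 in replicate 2. It was highest with isoginkgetin in both, with a mean rise of 1.23 log2 (2.35-fold; limma adjusted p = 0.029; SD 0.61 over n = 2 sets) that was larger in replicate 2 (adjusted p = 0.028 for the difference). EIF2AK3, which encodes the eIF2 kinase PERK of the endoplasmic reticulum, rose over both sets, with 0.35 and 0.42 log2 (mean 0.39, adjusted p = 0.027). HSPA5, the main ER chaperone, lay at 14.55, 14.64 and 14.92 log2 in replicate 1 and at 14.55, 14.54 and 14.95 in replicate 2 and rose by 0.34 log2 (SD 0.09, n = 2 sets, adjusted p = 0.017, and 0.15 with the median of its probe sets). DDIT3 and EIF2AK3 were 2 of 13 integrated stress response factors called over both sets, and HSPA5 was 1 of 23 genes of the ER unfolded protein response. Of all genes, 0.677% were called higher, and the other members of these 2 lists were not called.

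Other rises over both sets were spread over unrelated functions. By size these were IQCN (0.72 log2, adjusted p = 0.033), TMEM116 (0.68, 0.017), TCEAL9 (0.63, 0.035), FAM27E3 (0.58, 0.016) and CPNE1, a calcium-dependent membrane binding protein (0.57, 0.017). FAM27E3 belongs to a family of near copies and is uncertain. IQCN also differed between the sets, with 0.99 log2 in replicate 1 and 0.45 in replicate 2 (adjusted p = 0.019 for the difference), from a level of at most 4.92.

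TEAD4, a DNA-binding partner of the Hippo effector YAP, fell most. It lay at 9.32, 9.25 and 8.42 log2 in replicate 1 and at 8.15, 8.38 and 7.07 in replicate 2. The isoginkgetin arrays were lowest in each set, and the mean change was −1.07 log2 (2.1-fold; limma adjusted p = 0.017; SD 0.35 over n = 2 sets). CCN1, a secreted matrix protein and target of YAP and TEAD factors, fell (−0.59 log2, adjusted p = 0.017), so that 2 of 18 TEAD and YAP genes fell and 0 rose, where 3.05% of all genes fell, with medians of −0.12 and −0.165 log2 in replicates 1 and 2. The related CCN2 fell within each set (−0.64 and −0.25 log2, adjusted p = 0.01 and 0.049) and did not pass over both (0.091).

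The other large falls included enzymes, RNA factors and signalling genes. PMM2, an enzyme of protein glycosylation, had −0.85 log2 (adjusted p = 0.02), and SLC25A32, a mitochondrial folate carrier, −0.79 (0.027). TSR2, a ribosomal protein chaperone, had −0.74 (0.044), the ETS factor ELK3 −0.72 (0.043), CRLF3 −0.69 (0.045) and EHD4, a protein of endosomal traffic, −0.69 (0.023). YDJC, CCDC137 and RIC1 had −0.68, −0.66 and −0.65 log2. POP1, a subunit of RNase P, had −0.66, UPF1, the helicase of nonsense-mediated decay, −0.64, and TNFRSF12A, the receptor of the cytokine TWEAK, −0.64 log2. The falls of TSR2, ELK3 and CRLF3 differed in size between the sets, with −0.70, −0.65 and 0.55 log2 for replicate 2 minus replicate 1 (adjusted p = 0.011, 0.017 and 0.028).

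Of 23 interferon-stimulated genes 3 fell over both sets and 0 rose, where 3.05% of all genes fell. The vehicle moved this list too. Its median DMSO minus untreated was 0.03 log2 in replicate 1 and 0.11 in replicate 2, against −0.0091 and 0.0028 over all genes. Its median isoginkgetin minus DMSO was −0.11 and −0.05. RIGI, a sensor of viral RNA, had −0.66 log2 (adjusted p = 0.039), IFIT1 −0.53 (0.027) and IFIT5 −0.46 (0.039). IFIT1 lay at 8.02, 8.05 and 7.61 log2 in replicate 1 and at 4.20, 4.61 and 3.99 in replicate 2, where DMSO stood above untreated. IFIT2 and ISG15 had −0.23 and −0.19 log2 and did not pass (adjusted p = 0.051 and 0.059). In replicate 2 ISG15 lay at 5.07, 5.29 and 5.11 log2, so that its sign there depended on the control. IFIT3 fell within replicate 1 (−1.02 log2, adjusted p = 0.0022) and had −0.07 in replicate 2 (adjusted p = 0.0078 for the difference). IRF1, which drives interferon responses, had −0.45 and 0.02 log2 (0.033). IFI6 rose within replicate 2 by 0.94 log2 (adjusted p = 0.0051) and had −0.02 in replicate 1 (0.028 for the difference).

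The ribosome production genes that fell did so in small steps. Of 34 measured, RRN3, which recruits RNA polymerase I (−0.27 log2, adjusted p = 0.03), WDR43 (−0.19, 0.043), MYBBP1A (−0.47, 0.046) and the polymerase subunit POLR1F (−0.28, 0.047) fell over both sets and 0 rose, where 3.05% of all genes fell. The list had a median of −0.12 log2 in replicate 1, where 5 of 34 members lay above 0, and of −0.18 in replicate 2, where 4 did. Within replicate 2, 14 fell, where 9% of all genes did, among them the assembly factors NOP14 (−0.83 log2), RRS1 (−0.70) and BYSL (−0.59), which had −0.20, −0.07 and −0.07 in replicate 1 (adjusted p = 0.018, 0.049 and 0.023 for the differences). Within replicate 1, 3 fell, where 4.21% of all genes did, namely GRWD1, POLR1E and UTP20 (−0.80, −0.43 and −0.39 log2).

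Of 29 p53 targets measured 2 fell over both sets and 0 rose, where 3.05% of all genes fell and 0.677% rose. The nuclease gene AEN had −0.61 log2 (adjusted p = 0.042) and the DNA repair gene XPC −0.27 (0.043). CDKN1A, the cell cycle inhibitor, lay at 7.98, 7.91 and 7.84 log2 in replicate 1 and at 8.33, 8.34 and 8.41 in replicate 2. MDM2, the ubiquitin ligase of p53, lay at 11.49, 11.53 and 11.50 and at 12.10, 11.96 and 12.11. Neither passed in any of the tests (CDKN1A adjusted p = 0.995 over both sets, MDM2 0.46). Within replicate 2, 1 rose and 2 fell, where 4.84% of all genes rose and 9% fell. These were GADD45A, a stress-induced growth inhibitor (0.56 log2, adjusted p = 0.0082), PLK2, a kinase (−0.77, 0.0032), and AEN (−0.87, 0.0026). Within replicate 1, 1 rose and 3 fell, where 2.16% of all genes rose and 4.21% fell. The rise was that of CCNG1, a cyclin (0.32 log2, adjusted p = 0.031). The falls were those of ZMAT3, an RNA-binding protein (−0.60, 0.013), BTG2, an inhibitor of proliferation (−0.39, 0.028), and AEN (−0.35, 0.049).

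The second question was how far the 2 sets responded alike. In a fit with separate responses, where the p53-null sets give the residual spread and each lone set is assumed to vary like them, 1186 genes were called in replicate 1 (6.37%, 402 higher and 784 lower) and 2576 in replicate 2 (13.8%, 900 higher and 1676 lower). Of these, 56 were higher in both, which is 13.9% of the first list and 6.22% of the second, and 240 were lower in both (30.6 and 14.3%). With the median of a gene's probe sets in place of the mean, 0 genes were called in replicate 1, 21 in replicate 2 and 0 for the difference between them, so that nearly all calls within a set and all calls of the difference below rest on the mean. Another 11 were higher in replicate 1 and lower in replicate 2, and 37 the reverse. The difference between the responses itself was called for 931 genes (5%), with 449 higher (2.41%) and 482 lower (2.59%) in replicate 2, and 552 of these had opposite signs in the sets. The responses correlated at a Pearson r of 0.29 (0.35 by Spearman rank correlation) over 18613 genes, which are not independent replicates. For comparison, the 2 p53-null sets correlated at a Pearson r of 0.60 and at 0.41 by rank. The part of the marker differences between the sets in these results was not tested.

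Counts by size, without a test, also differed between the sets. In replicate 1, 23 genes were 2-fold or more higher (0.124% of all genes) and 6 lower (0.0322%), together 0.156%. In replicate 2 there were 40 (0.215%) and 29 (0.156%), together 0.371%. Only MT1F was 2-fold higher in both sets, which is 4.35% of the first list and 2.5% of the second, and 0 genes were 2-fold lower in both. DMSO against untreated gave 0 such genes in replicate 1 and 4 in replicate 2 (0.0215%), namely KTN1-AS1, MIR548AC, OR9K2 and SCP2D1, named after their values were seen. Over both sets, limma called 0 genes between DMSO and untreated, with 411 at an unadjusted p under 0.05.

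**Figure D3:**
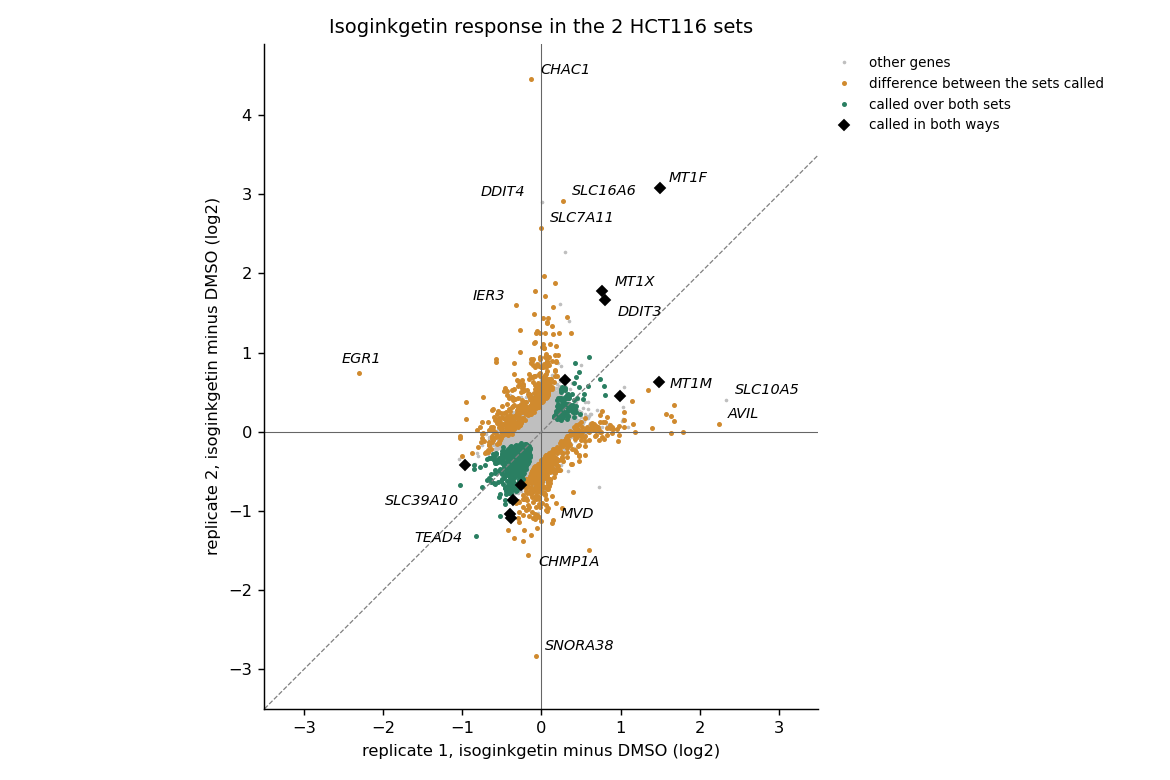
Isoginkgetin minus DMSO (log2) of 18613 genes in replicate 1 (horizontal axis) and replicate 2 (vertical axis); green, called over both sets; orange, difference between the sets called; black diamonds, both; grey, other genes; dashed line, equal responses. CHAC1, DDIT4, SLC7A11 and SLC16A6 lie near 0 in replicate 1 and above 2.5 in replicate 2, and EGR1 lies at −2.30 and 0.74.

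Genes driven by ATF4 rose in replicate 2, where the median level of the list in DMSO was lower than in replicate 1. Within replicate 2, all 33 measured members of the ATF4 target list lay above 0, 21 rose and 0 fell, with a median of 0.39 log2, where 4.84% of all genes rose. Within replicate 1, 14 lay above 0, 0 rose and 2 fell, with a median of −0.01, where 2.16% of all genes rose and 4.21% fell. The difference between the sets was called for 12 of the 33, each with the larger response in replicate 2, where 2.41% of all genes were called in that direction. The members started from different levels: the median in DMSO was 10.20 log2 in replicate 1 and 7.93 in replicate 2, against 5.95 and 5.32 over all genes. This did not hold for every member. In DMSO, ULBP1 lay at 4.65 log2 in replicate 1 and 7.67 in replicate 2, and PYCR1 at 4.85 and 9.98.

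CHAC1, an enzyme that degrades glutathione, lay at 10.01, 9.93 and 9.80 log2 in replicate 1 and at 5.05, 5.09 and 9.54 in replicate 2. Its treated array in replicate 2 came close to the level that all 3 arrays of replicate 1 had. It rose within replicate 2 by 4.45 log2 (21.9-fold, adjusted p = 0.0045), with −0.13 in replicate 1 and a difference of 4.58 (SE 0.66, adjusted p = 0.024). Over both sets it had 2.16 log2 (SD 3.24, n = 2 sets, adjusted p = 0.24). DDIT4, an inhibitor of mTORC1, lay at 10.63, 10.66 and 10.66 log2 in replicate 1 and at 7.71, 7.59 and 10.50 in replicate 2, the same pattern. It rose within replicate 2 (2.90, adjusted p = 0.01), and the difference of 2.90 log2 did not pass (adjusted p = 0.052). ATF4 itself lay at 11.80, 11.82 and 11.80 log2 and at 10.64, 10.63 and 11.55, high on all arrays of replicate 1, and rose within replicate 2 by 0.92 (adjusted p = 0.0061; 0.033 for the difference).

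Transporters and enzymes of amino acid supply were among them. SLC7A11, which imports cystine, lay at 10.03, 10.11 and 10.10 log2 in replicate 1 and at 9.36, 9.15 and 11.73 in replicate 2, a rise of 2.58 in the latter (5.98-fold, adjusted p = 0.0024; 0.015 for the difference). ASNS, the asparagine synthetase, lay at 11.36, 11.37 and 11.27 log2 and at 8.21, 8.26 and 9.75. It was picked with its values in view. SLC6A9, a glycine transporter, rose by 0.87 log2 in replicate 2 and fell by 0.34 log2 in replicate 1 (adjusted p = 0.0071 for the difference). SLC1A5, a glutamine transporter, fell in replicate 1 as well (−0.31 log2, adjusted p = 0.028), against 0.09 in replicate 2. PYCR1, of proline synthesis, rose by 0.57 log2 in replicate 2 (0.0027).

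SESN2, an inhibitor of mTORC1, and STC2, a secreted glycoprotein, rose within replicate 2 by 1.61 and 1.40 log2 (adjusted p = 0.018 and 0.016), and ULBP1, a surface ligand seen by natural killer cells, by 2.27 (0.0079). In replicate 1 they had 0.23, 0.34 and 0.30, and their differences between the sets did not pass (adjusted p = 0.12, 0.14 and 0.06). TRIB3, a pseudokinase that binds ATF4, rose by 1.44 log2 within replicate 2 against 0.08 in replicate 1 (0.035), and NUPR1, a stress-induced chromatin protein, by 1.08 against 0.19 (0.018). ATF3, a stress factor of the same family as ATF4, had 0.05 and 0.53 log2 (0.037). Among the 13 stress response factors, 7 rose and 2 fell within replicate 2, where 4.84 and 9% of all genes did, and 1 rose and 1 fell within replicate 1 (2.16 and 4.21%). The 2 falls were those of PPP1R15A, a subunit of the eIF2 phosphatase (−0.39 log2, adjusted p = 0.015), and EIF2AK4, an eIF2 kinase (−0.23, adjusted p = 0.034). PPP1R15B, the counterpart of PPP1R15A, fell by 0.57 log2 within replicate 1 (adjusted p = 0.0088) and rose by 0.22 within replicate 2 (0.037).

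**Figure D4:**
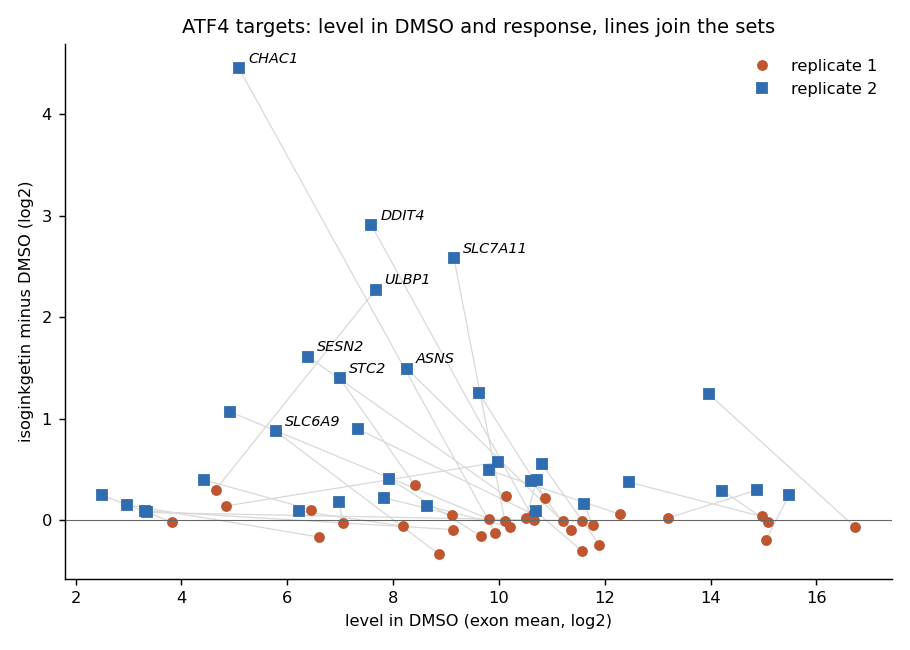
Level in DMSO (exon mean, log2, horizontal axis) and isoginkgetin minus DMSO (log2, vertical axis) of 33 ATF4 targets in each set, with a line joining the 2 points of a gene. Every point of replicate 2 lies above 0, and the points of replicate 1 lie between −0.34 and 0.34, mostly at higher levels in DMSO.

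The difference between the sets was also called for 6 genes of the unfolded protein response, where it was called for 5% of all genes. Of 23 genes of the unfolded protein response, 7 rose and 1 fell within replicate 2, where 4.84 and 9% of all genes did. Of these 23, HSPA5 alone was called in replicate 1, as higher, where 2.16% of all genes were called higher. CALR, a lectin chaperone, went the other way, with −0.37 log2 in replicate 2 against 0.12 (adjusted p = 0.035 for the difference). XBP1, a transcription factor activated by IRE1, rose by 1.23 log2 in replicate 2 against 0.15 in replicate 1 (0.02 for the difference), and HERPUD1, of ER-associated degradation, by 1.25 against 0.22 (0.035). SYVN1, the ubiquitin ligase of that pathway, had 0.94 against 0.07 (0.027), and SEC24D, a coat protein of ER export, 0.71 against 0.17 (0.02). The medians of the list were 0.08 log2 in replicate 1 and 0.12 in replicate 2.

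Several immediate early genes changed in opposite directions. EGR1, a zinc finger transcription factor, lay at 9.89, 9.79 and 7.48 log2 in replicate 1 and at 10.22, 10.33 and 11.07 in replicate 2. The treated array was the lowest of replicate 1 and the highest of replicate 2. It fell by 2.30 log2 (4.93-fold, adjusted p = 0.00035) in the first and rose by 0.74 (adjusted p = 0.0023) in the second, a difference of 3.04 (SE 0.08, adjusted p = 0.00052). IER3, an inhibitor of cell death, lay at 6.81, 6.75 and 6.43 log2 in replicate 1 and at 12.13, 11.68 and 13.28 in replicate 2, a fall of 0.32 log2 and a rise of 1.60 (adjusted p = 0.0031 for the difference). It lies in the MHC region, which has alternative haplotype copies, and its value is uncertain.

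NR4A1, an orphan nuclear receptor, had −0.58 and 0.92 log2 (0.016 for the difference), and IER2 −0.31 and 0.24 (0.025). The related NR4A2 was near the floor in replicate 1 (3.89, 3.81 and 3.98 log2) and rose within replicate 2 (8.34, 8.46 and 10.34, adjusted p = 0.0043). Of the 20 genes of the list, 7 rose and 2 fell within replicate 2, where 4.84 and 9% of all genes did, and 0 rose and 4 fell within replicate 1 (2.16 and 4.21%), with medians of 0.08 and −0.13 log2.

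Genes of cholesterol and fatty acid synthesis, taken as 1 list, were also split by set. The list holds fatty acid genes such as FASN and FADS2, which had 0.17 and 0.20 log2 in replicate 2. Within replicate 2, 9 of 24 fell and 0 rose, with a median of −0.21 log2, where 9% of all genes fell. Within replicate 1, 22 of 24 lay above 0 with a median of 0.12 log2, and 0 were called. The difference was called for 7, all lower in replicate 2, where 2.59% of all genes were called in that direction. HMGCS1, which makes HMG-CoA, lay at 11.24, 11.10 and 11.37 log2 in replicate 1 and at 9.85, 9.83 and 8.88 in replicate 2, and fell by 0.96 log2 in the latter (adjusted p = 0.0026; 0.01 for the difference). MVD, a decarboxylase of the mevalonate pathway, lay at 8.22, 8.21 and 8.34 and at 9.11, 9.06 and 7.90, with a fall of 1.16 log2 in replicate 2 (0.0016; 0.0081 for the difference). LSS, the lanosterol synthase, had 0.37 and −0.41 log2 (0.023), and CYP51A1 0.27 and −0.17 (0.043). INSIG1, a sterol sensor, and SQLE, an epoxidase, fell within replicate 2 (−0.62 and −0.57 log2, adjusted p = 0.022 and 0.014), without a difference that passed (0.11 and 0.054).

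**Figure D5:**
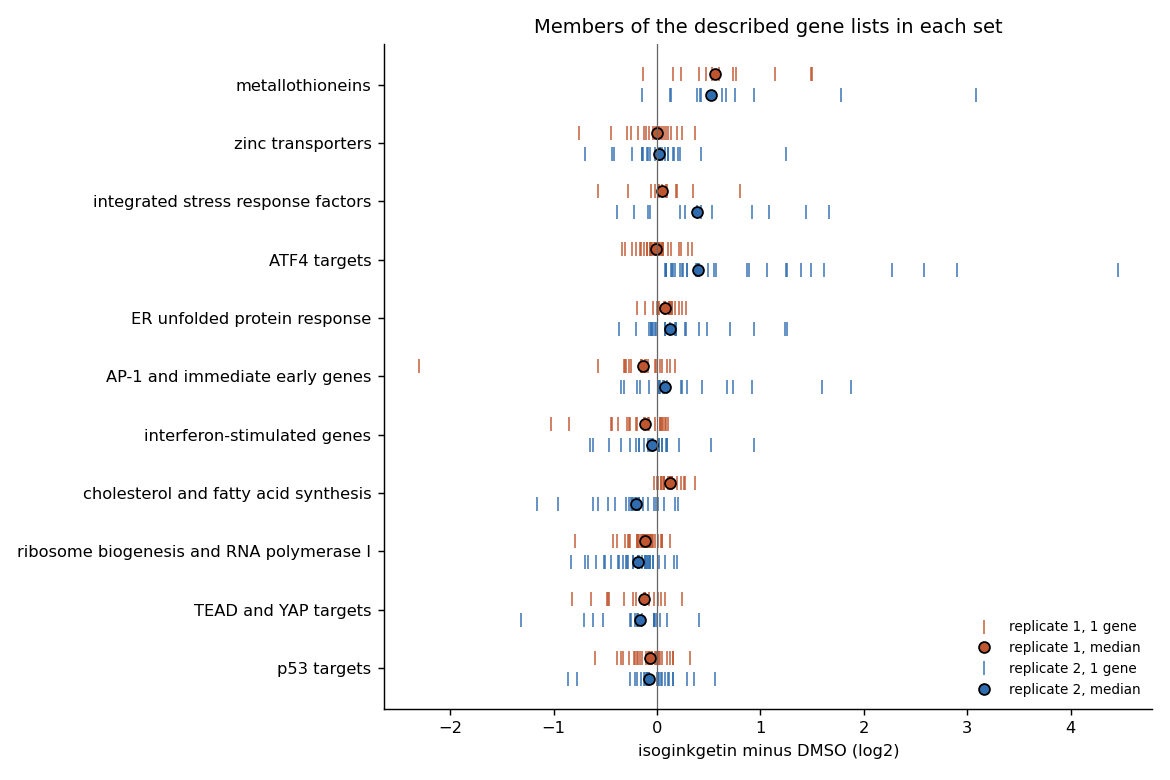
Isoginkgetin minus DMSO (log2, horizontal axis) of every measured member of 11 gene lists, 1 tick per gene, with the median of each set as a dot. The medians of the metallothioneins lie at 0.56 and 0.52, those of the ATF4 targets at −0.01 and 0.39, and those of cholesterol and fatty acid synthesis at 0.12 and −0.21, for replicate 1 and replicate 2.

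The largest rises of replicate 1 beside the metallothionein genes, among genes at 6 log2 or more with isoginkgetin or DMSO, came with at most 0.40 log2 in replicate 2. AVIL, AOC2 and RFPL1S reached 6 log2 only on the treated array, so that their place here follows from their rise. SLC10A5, a member of the bile acid transporter family, lay at 7.86, 7.52 and 9.85 log2 in replicate 1 and at 6.76, 6.73 and 7.13 in replicate 2 (2.33 and 0.40; adjusted p = 0.052 for the difference). AVIL, an actin regulator, lay at 4.52, 4.54 and 6.78 log2 and at 3.43, 3.49 and 3.60, with the treated array of replicate 1 far above the other 5 (2.24 against 0.10). PLAC8L1 had 1.68 against 0.33, AOC2, an amine oxidase, 1.39 against 0.04, and TXNIP, an inhibitor of thioredoxin, 1.15 against 0.10 log2. The antisense transcripts PARD6G-AS1 and RFPL1S had 1.64 and 1.18 log2 in replicate 1 and lay at most at 3.05 on any array of replicate 2. They are uncertain, because antisense and sense signals may mix.

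The largest falls of replicate 1 after EGR1 were those of PPP2R3A, a phosphatase subunit (−1.04 log2), PMM2 (−1.03), HELB, a DNA helicase (−1.03), IFIT3 (−1.02), CRLF3 (−0.97), TLCD1 (−0.95), GPR84 (−0.95), TAF4B, a subunit of TFIID (−0.87), and RIGI (−0.85). In replicate 2 the same genes had −0.34, −0.67, −0.06, −0.07, −0.42, 0.38, 0.16, −0.26 and −0.47. GPR84, a receptor of fatty acids on myeloid cells, lay at 10.77, 10.58 and 9.64 log2 in replicate 1 and near the floor in replicate 2 (3.01, 2.87 and 3.02), while 0 of 4 leukocyte markers passed 8 log2 in either set. For PPP2R3A, PMM2 and RIGI the difference between the sets did not pass (adjusted p = 0.063, 0.081 and 0.12).

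In replicate 2 the largest rises beside those above were SLC16A6, a monocarboxylate transporter (2.92 log2, with 0.27 in replicate 1), IFITM4P, a pseudogene (1.97), and ATP5F1D, a subunit of ATP synthase (1.78, with −0.08). ARL2, a small GTPase, rose by 1.72 log2 against 0.05. The largest falls were SNORA38, a small nucleolar RNA (−2.83 log2), CHMP1A, of the ESCRT machinery (−1.56), EMP1, a membrane protein (−1.38), the sorting nexin gene SNX12 (−1.34), TEAD4, AP3M2, an adaptor subunit (−1.30), ARHGDIA (−1.25), CDR2L (−1.24), ANAPC15, a subunit of the anaphase-promoting complex (−1.22), and MVD. SNORA38 lay at 8.14, 8.95 and 6.12 log2 on the arrays of replicate 2 and at 8.12, 8.22 and 8.15 on those of replicate 1, so that DMSO already stood above untreated by 0.80 log2. SNORA38 and IFITM4P lie in the MHC region with alternative haplotype copies and are uncertain. The difference between the sets was called for all of these except TEAD4.

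Responses of each set were also compared with the mean response of the p53-null subline, which carries epithelial markers (EPCAM at 12.07 to 12.30 log2). The difference was called for 380 genes in replicate 1 (2.04%) and for 1103 in replicate 2 (5.93%), 2 comparisons that share the p53-null arrays. CHAC1 had 2.94 log2 in the p53-null sets, and neither −0.13 in replicate 1 nor 4.45 in replicate 2 differed from it past the threshold (adjusted p = 0.065 and 0.2). For SLC7A11, the p53-null response was 1.94, from which replicate 1 differed by −1.95 (0.035) and replicate 2 by 0.64 (0.22). SLC30A1 had 1.54 there and differed in replicate 1 (−1.17, adjusted p = 0.012) and not past the threshold in replicate 2 (−0.29, 0.12). EGR1 had 0.04 and differed in both, by −2.35 (0.001) and 0.69 (0.0097). MT1F had 1.02, and replicate 2 stood above it by 2.06 (0.0043), while 0.47 for replicate 1 did not pass. TEAD4 had −0.23, with −1.09 for replicate 2 (0.014), while −0.60 for replicate 1 did not pass. SLC39A10 had −0.81 and MT2A 0.56 log2, with differences that did not pass in either set (adjusted p of at least 0.48).

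Because the compound is described as a splicing inhibitor, junction probe sets were set against exon probe sets. The median over 16716 genes of the junction mean minus the exon mean changed by −0.0097 log2 with isoginkgetin in replicate 1 and by −0.024 in replicate 2. DMSO against untreated changed it by 0.017 and 0.033, and against untreated the treated arrays had 0.0072 and 0.0091. Over these 16716 genes the sign thus depended on the control. These shifts are given as values, with an SD of 0.0098 over the 2 sets. Among genes with an exon mean of at least 8 log2, a level chosen after seeing the data, the median was lowest with isoginkgetin in both sets. It lay at −0.489 untreated, −0.486 in DMSO and −0.517 with isoginkgetin in replicate 1. In replicate 2 it lay at −0.439, −0.377 and −0.441, so that the treated array was just below untreated. The p53-null sets did not share this order. There the median lay at −0.447, −0.487 and −0.456 in replicate 1 and at −0.385, −0.42 and −0.405 in replicate 2, lowest in DMSO. Of single junction probe sets, 3.76% were 2-fold or more higher and 4.64% lower in replicate 1, and 5.15 and 6.38% in replicate 2, where DMSO against untreated gave 3.14 and 2.64% and 3.30 and 2.66%. Of exon probe sets, 0.684% were 2-fold higher and 0.806% lower in replicate 1 and 0.998 and 1.68% in replicate 2, against 0.240 and 0.197% and 0.216 and 0.346% with DMSO.

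Of 41 core spliceosome genes, 3 rose and 9 fell within replicate 2 (median −0.09 log2), where 4.84% of all genes rose and 9% fell, and 0 were called in replicate 1 (median −0.01), where 2.16 and 4.21% were. The difference between the sets was called for 5 of these 41, where it was called for 5% of all genes. The single probe sets that moved most against their gene in both sets were junctions of TEC, SYNE2, RPGRIP1L, CDK14 and TRPC1 and exon rows of AGTPBP1, CLCC1, NUF2, LRRC34 and CFAP69. The junction of TEC lay at 2.53, 4.59 and 12.75 log2 in replicate 1 and at 1.67, 1.93 and 8.12 in replicate 2, with both treated arrays above all controls. In others the controls disagreed, as in the exon row of AGTPBP1, at 10.00, 10.39 and 3.08 log2 in replicate 1 and at 4.65, 11.67 and 2.13 in replicate 2, or in that of NUF2, at 10.42, 2.38 and 12.17 and at 4.09, 8.76 and 14.78. Identical values recur across these probe sets, as in the 12.75 log2 of the treated array of replicate 1 for the junctions of both TEC and RPGRIP1L.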

How the data were processed

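The values were log2 signals deposited by the authors, 1 per probe set or gene and array, made in Transcriptome Analysis Console 4.0 with default settings from Human Transcriptome Array 2.0 scans, per the series' design text; no label or header names the summarisation method or genome build. Exon probe sets numbered 573909 and junction probe sets 339146, and 381400 exon probe sets of 18613 genes were used (at least 3 per gene, median 16), and 2474 older symbols were updated through a RefSeq table. All 12 array columns belonged to samples of the series, and 0 others were present.

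Each gene's exon probe sets were averaged, and limma 3.58.1 (R 4.3.3) was fitted to all 12 arrays with the set of line and replicate number as a block. Of the 2 fits, 1 had a common response for the HCT116 sets (4 residual degrees of freedom), and the other 1 per set, where the p53-null sets gave the spread (2 residual degrees of freedom). Two-sided p-values were adjusted by Benjamini-Hochberg over all 18613 genes, with a threshold of 0.05. Same-numbered arrays deviated together (r of 0.985 to 0.997 in HCT116 and 0.903 to 0.904 in the p53-null line). With 2 arrays per group these r values carry any difference between the sets. In HCT116 that includes their different markers, so that r does not show a pairing of experiments. The scripts were tested on simulated data, and tables were written with Python 3.11.15 and pandas 2.3.3.

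Named genes were a fixed set of stress, metal and p53 genes, the 15 largest called rises and falls over both sets beyond both controls, the 10 largest of each set from 6 log2 upwards, the 10 largest called differences of each sign, up to 6 members per list by p and 4 by difference in each set, and 5 junction and 5 exon probe sets. The members and lists were chosen with earlier results of these data known. 1 further gene is not reported here. Alternatives covered the summary of probe sets, scaling, filters, the control, the block, the gene-level table, the thresholds and each array left out.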

Additional observations from a re-analysis of the deposited data

Results flagged for a closer look

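The response to isoginkgetin differed between replicate 2 and replicate 1, by the limma contrast of the 2 responses, for 931 of 18613 genes. With the median of a gene's probe sets in place of the mean it was called for 0 genes, so that each of these calls rests on the mean. Of the 156 named genes 71 were among them, 38 with the higher response in replicate 2 and 33 with the lower (adjusted p of 0.00052 to 0.049). The named genes include the largest called differences and the largest changes of each set. Their share among the 931 therefore follows from how they were picked, and over all genes it was 5%. The values that follow are the response in replicate 2 minus that in replicate 1 in log2, and the contrast is the reason each gene is listed. Each response rests on 1 treated and 1 DMSO array, and the sets also differed in their epithelial and mesenchymal markers, whose part in these differences was not tested.

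Among stress response and ER genes the differences were those of CHAC1 (4.58), SLC7A11 (2.59), TRIB3 (1.36), SLC6A9 (1.21), XBP1 (1.09), HERPUD1 (1.04), ATF4 (0.94), NUPR1 (0.90), SYVN1 (0.87), DDIT3 (0.87), PPP1R15B (0.79), CEBPB (0.55), SEC24D (0.54), ATF3 (0.48), PYCR1 (0.43) and SLC1A5 (0.40). Metal genes were MT1F (1.59), MT1X (1.01), SLC30A1 (0.88), SLC39A4 (0.53), MT1M (−0.87), MT1JP (−0.81) and MT1A (−0.76). Immediate early genes were EGR1 (3.04), IER3 (1.92), NR4A2 (1.71), NR4A1 (1.496) and IER2 (0.55), and interferon genes IFI6 (0.96), IFIT3 (0.95) and IRF1 (0.47). Enzymes of cholesterol synthesis were MVD (−1.29), HMGCS1 (−1.22), LSS (−0.78) and CYP51A1 (−0.44). Ribosome production genes were NOP14 (−0.63), RRS1 (−0.63) and BYSL (−0.52), and TEAD and YAP genes TEAD1 (0.58) and CRIM1 (−0.49).

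Other genes with a higher response in replicate 2 were SLC16A6 (2.65), IFITM4P (1.93), ATP5F1D (1.87), ARL2 (1.67), TLCD1 (1.33), GPR84 (1.10), HELB (0.97), TAF4B (0.61) and CRLF3 (0.55). Those with a lower one were SNORA38 (−2.76), AVIL (−2.13), OR9K2 (−2.10), C1orf162 (−1.79), PARD6G-AS1 (−1.66), BAAT (−1.54), C2orf66 (−1.44), CHMP1A (−1.39), IDI2-AS1 (−1.35), AOC2 (−1.35), PLAC8L1 (−1.34), RFPL1S (−1.18), AP3M2 (−1.17), ANAPC15 (−1.16), EMP1 (−1.15), TXNIP (−1.05), ARHGDIA (−1.02), SNX12 (−0.995), CDR2L (−0.83), TSR2 (−0.70), ELK3 (−0.65) and IQCN (−0.53). OR9K2, an olfactory receptor gene, was also 2-fold higher in DMSO than untreated in replicate 2.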

How the results depend on the processing

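The count of genes called over both sets was 161 with the median of a gene's probe sets, 449 with quantile scaling, 1863 against the mean of DMSO and untreated, 1932 at an adjusted p under 0.1 and 40 at 1.5-fold or more. It was 0 with no replicate block, 0 on the HCT116 arrays only, and 0 by the methods' unpaired test without the block. Leaving out arrays gave 0 to 3490 (0 without DMSO 1 or 2, 258 without untreated 1 or 2, 3490 and 2363 without isoginkgetin 1 or 2, 2576 and 1186 without all arrays of replicate 1 or 2). The gene-level table gave 91 over both sets, 18496 and 8044 for replicates 1 and 2, 18854 for their difference and 1 between DMSO and untreated. These are not read further, since 12918 or, in the fit per set, 17985 of its 22411 genes had a spread of 0. The calls in replicate 1 were 0 with the median, 2279 against the mean control, 2270 at 0.1 and 173 at 1.5-fold, and those in replicate 2 were 21 with the median and 385 at 1.5-fold. The difference between the sets was called for 0 genes with the median, 1642 against the mean control, 1871 at 0.1 and 394 at 1.5-fold. Counts of 2-fold genes in replicates 1 and 2 were 120 and 282 with the median, 14 and 38 with at least 10 probe sets, and 178 and 395 at 1.5-fold. The junction shift of replicate 1 was −0.02 with the median, −0.036 from a level of 5, 0.0072 against untreated and −0.031 from an exon mean of 8, the last chosen after seeing the data. That of replicate 2 was −0.059, 0.0091 and −0.064 under the latter 3, and −0.0073 against the mean control.

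Over 38 named genes, 566 recomputed values kept sign and call, 223 lost the call, 13 gained it and 12 turned sign. MT1IP turned to −0.067 with the median. CDKN1A had 0.0081 with quantile scaling, 0.010 with centred arrays, 0.019 without DMSO 1, 0.094 without isoginkgetin 1 and 0.076 without replicate 1. MDM2 had −0.023 without DMSO 2 and without replicate 2, and ATF4 and CHAC1 had −0.012 and −0.16 without isoginkgetin 2 and −0.019 and −0.13 without replicate 2. With 1 array or set left out, ATF4 ranged from −0.019 to 0.92, CHAC1 from −0.16 to 4.48, CDKN1A from −0.095 to 0.094 and MDM2 from −0.023 to 0.15. The causes were not tested. Signal limits genes near the floor of the arrays, where the 10th percentile lay at 2.99 to 3.77 log2.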

Other observations

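Targets of the aryl hydrocarbon receptor, a sensor of flavonoids and other ring compounds, were not described above. Of 8 measured, 4 rose within replicate 2 (CYP1A1, CYP1B1, TIPARP and NQO1) and 0 within replicate 1, where 4.84 and 2.16% of all genes rose. CYP1A1, a cytochrome P450, had 0.13 log2 in replicate 1 and 1.33 in replicate 2 (limma adjusted p = 0.006 for the difference), and CYP1B1 had −0.21 and 0.31 (0.0496). These genes were chosen after their values were seen. Among 23 NF-kB targets and cytokines, TNFAIP3 and CCL2 were called over both sets, 1 gene higher and 1 lower, where 0.677 and 3.05% of all genes were. TNFAIP3, an inhibitor of NF-kB signalling, had −0.36 and −0.28 log2 and CCL2, a chemokine, 0.20 and 0.25. Of 43 genes of DNA replication, GINS2, CHAF1B and SLBP fell over both sets (−0.39, −0.23 and −0.37 log2), where 3.05% of all genes fell.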
